A study of Homo sapiens with 6 samples.

Results

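The apolipoprotein L (APOL) genes were followed in RNA-seq libraries of LNCaP, an established line of androgen-dependent human prostate cancer cells. Their 5 members are APOL1, APOL2, APOL3, APOL4 and APOL6, out of 23998 gene symbols in the deposited count table. The members were selected on their names and on having a row in that table, and the family was chosen from earlier results of the same contrast that is described here. Their differences between the groups are therefore given as a description, with standard errors and no p-value. APOL5, the remaining human gene of the family, was not analysed here.

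The libraries fall into 2 groups of 3. LNCaP-ENZR cells are LNCaP cells made resistant to enzalutamide, a drug that blocks androgen signalling, by stepwise exposure to 5 to 50 µM for over 12 months with 10% charcoal-stripped serum, from which most steroids have been removed. LNCaP-WT cells are the LNCaP cells with no treatment, and the growth protocol of both groups names RPMI medium with 10% fetal bovine serum. The labels do not say whether drug or stripped serum was present at harvest, nor whether each library stems from a culture of its own, so the p-values below measure the spread between libraries and may be technical. The labels describe a single derivation of resistant cells, whose drug history, serum and added time in culture cannot be told apart. Library totals were 35790974 to 36610862 counts in LNCaP-ENZR and 34505712 to 35531519 counts in LNCaP-WT.

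APOL proteins share a helical region that resembles the pore-forming parts of bacterial toxins and of BCL2-family proteins, and several of them act on membranes. APOL1 is the secreted member: it circulates on lipoprotein particles and lyses trypanosomes, and variants of it raise the risk of kidney disease in people. The other members lack a secretion signal and stay inside the cell. Transcription of the family is raised by interferons and by tumour necrosis factor, in endothelial, immune and epithelial cells.

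All 5 members lie on chromosome 22 of GRCh38, within 619.1 kb, by the RefSeq gene table. APOL6 (chr22:35648446-35668404, plus strand) stands apart from the other members, with the splicing factor gene RBFOX2 in between. APOL3 (chr22:36140323-36166177), APOL4 (chr22:36189128-36204833) and APOL2 (chr22:36226209-36239954) follow one another on the minus strand, and APOL1 (chr22:36253133-36267525) closes the cluster on the plus strand. The gaps between these last genes are 22950, 21375 and 13178 bases. No other gene of that table overlaps a member. The members are related in sequence, so shared words were counted. In GENCODE release 29, 9% of the distinct 25-base words in APOL1 transcripts also occur in another APOL gene, against 8.12% for APOL2, 3.34% for APOL3, 3.10% for APOL4 and 0.0595% for APOL6. Of the 50-base words 0.608% in APOL1 are shared, and of the 100-base words in any of the 5 members 0 are shared. The reads were 150 bases long and paired, per the labels, and how reads with several matches were counted is not given in the sources used here.

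APOL1, the secreted trypanolytic factor, was nearly absent from the resistant cells. It had 0, 6 and 6 counts in the LNCaP-ENZR libraries, against 404, 364 and 365 counts in the LNCaP-WT libraries. The groups did not overlap, and the lowest LNCaP-WT library held more than all 3 LNCaP-ENZR libraries together. A count of 0 in LNCaP-ENZR 1 allows up to 3 counts, which corresponds to 0.0859 CPM (counts scaled to a common library size after TMM normalization). The mean level was 0.114 ± 0.0986 CPM in LNCaP-ENZR and 10.5 ± 0.790 CPM in LNCaP-WT (SD, n = 3 each). The log2 fold change, LNCaP-ENZR over LNCaP-WT, was -6.48 ± 0.31 (SE), an 89.1-fold lower level. Over the 12 and 1133 counts of the groups, the scaled ratio of LNCaP-WT to LNCaP-ENZR was 91.7, with an exact 95% binomial interval of 52.3 to 178. That interval covers counting error only, like the others of its kind below.

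APOL6, an intracellular member whose forced expression triggers cell death, showed a difference of the same order. It had 5, 7 and 9 counts in LNCaP-ENZR, against 462, 503 and 507 counts in LNCaP-WT, again with no overlap. The mean was 0.200 ± 0.0574 CPM in LNCaP-ENZR and 13.6 ± 0.507 CPM in LNCaP-WT (SD, n = 3 each). The log2 fold change was -6.06 ± 0.20 (SE), 66.9-fold lower in LNCaP-ENZR, and the interval of the scaled count ratio ran from 44.4 to 110 for LNCaP-WT over LNCaP-ENZR. The intervals of APOL1 and APOL6 overlap, and the genes sit at opposite ends of the cluster. Among the 15422 tested genes, 21 had a lower log2 fold change than APOL1 and 28 a lower one than APOL6.

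APOL3, an interferon-inducible protein that dissolves the membranes of bacteria in the cytosol, was lower by less. Its libraries held 60, 78 and 63 counts in LNCaP-ENZR, against 523, 534 and 475 counts in LNCaP-WT. The groups did not overlap, and here the resistant cells still carried a measurable level. APOL3 averaged 1.91 ± 0.261 CPM in LNCaP-ENZR and 14.1 ± 0.916 CPM in LNCaP-WT (SD, n = 3 each), a log2 fold change of -2.89 ± 0.14 (SE) or 7.39-fold lower.

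APOL2, the intracellular member with the highest level in both groups, differed least among the 4 tested. It had 702, 886 and 704 counts in LNCaP-ENZR, against 2142, 2255 and 2351 counts in LNCaP-WT. No LNCaP-ENZR library came near the LNCaP-WT libraries, and LNCaP-ENZR 2 stood above its group. The mean was 21.8 ± 2.85 CPM in LNCaP-ENZR and 62.3 ± 2.29 CPM in LNCaP-WT (SD, n = 3 each), a log2 fold change of -1.52 ± 0.084 (SE) or 2.86-fold lower.

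APOL4 was near the limit of detection in both groups. It had 1, 0 and 2 counts in LNCaP-ENZR, against 4, 2 and 4 counts in LNCaP-WT, so the groups shared the value 2. It did not pass the filter on low counts and was not tested. The scaled ratio of LNCaP-WT to LNCaP-ENZR, over 10 and 3 counts, was 3.24 with an interval of 0.834 to 18.3, so no difference was detectable at this depth.

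**Figure D1:**
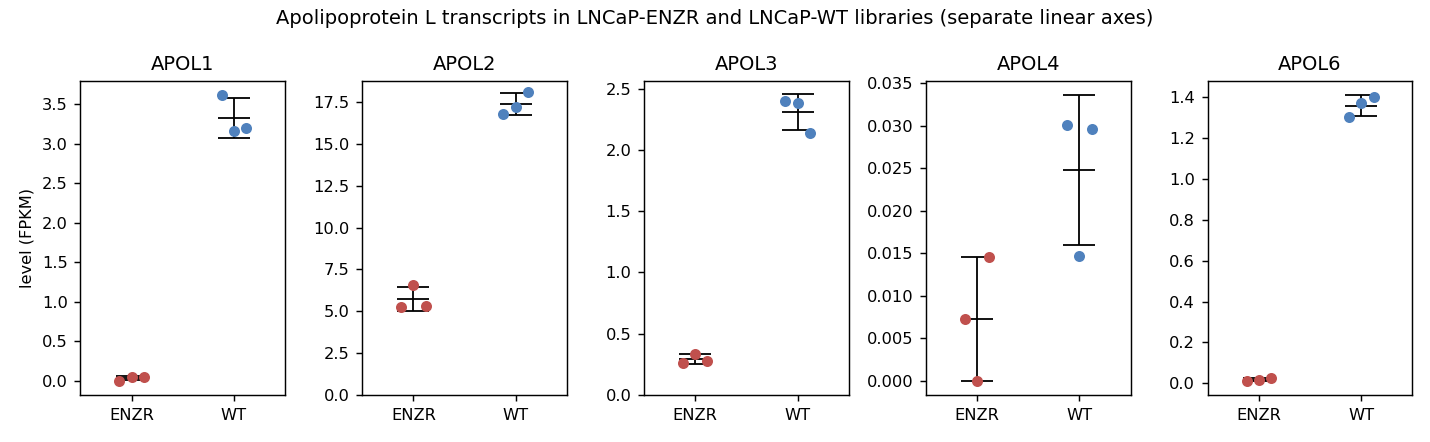
Level of each APOL gene in FPKM (vertical, linear, a separate scale for each gene) in the 3 LNCaP-ENZR and the 3 LNCaP-WT libraries; points are libraries and bars are the mean ± SD. The LNCaP-ENZR points of APOL1 and APOL6 lie at the bottom of their panels, at 0 to 0.0517 and 0.0134 to 0.0244 FPKM, and in APOL4 the highest LNCaP-ENZR point, at 0.0145 FPKM, lies beside the lowest LNCaP-WT point, at 0.0146 FPKM.

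Of the 5 members, 4 passed the filter on low counts. APOL1 and APOL6, with at most 6 and 9 counts in any LNCaP-ENZR library, passed it through LNCaP-WT. With an adjusted p under 0.05 in edgeR's quasi-likelihood test as the call, all 4 were lower in LNCaP-ENZR and 0 were called higher, beside 34.8% of all tested genes called lower and 34.4% called higher. The CPM of 4 of the 5 members did not overlap between the groups, as for 72.2% of all tested genes. Since the family was proposed from this contrast, and APOL1 and APOL6 passed the filter through LNCaP-WT, nothing is read from those counts. The median log2 fold change of the 4 was -4.48, beside -0.01 over all tested genes, and is likewise not read as a result. In bulk RNA such as this, fewer cells that express a gene and less RNA per cell cannot be told apart.

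Levels between genes are compared per length, in the authors' FPKM (fragments scaled by gene length and by library total). In LNCaP-ENZR the order was APOL2 at 5.72 ± 0.724, APOL3 at 0.293 ± 0.0390, APOL1 at 0.0341 ± 0.0295, APOL6 at 0.0188 ± 0.00547 and APOL4 at 0.00725 ± 0.00726 FPKM (SD, n = 3). In LNCaP-WT it was APOL2 at 17.4 ± 0.674, APOL1 at 3.32 ± 0.249, APOL3 at 2.31 ± 0.144, APOL6 at 1.36 ± 0.0523 and APOL4 at 0.0248 ± 0.00880 FPKM. No neighbours in the LNCaP-WT order had overlapping libraries. In LNCaP-ENZR the libraries of APOL1 overlapped those of APOL6, and those of APOL6 overlapped those of APOL4, so the last 3 places are not separated. APOL1 and APOL3 stood in opposite order in the groups. Against all genes of the table, APOL2 lay at the 70.8th percentile of mean FPKM in LNCaP-ENZR and the 86.0th in LNCaP-WT, while APOL1 lay at the 28.4th in LNCaP-ENZR and the 62.3rd in LNCaP-WT.

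The make-up of the family's transcripts differed with these levels. The members summed to 6.07 ± 0.773 FPKM in LNCaP-ENZR and 24.4 ± 0.440 FPKM in LNCaP-WT (SD, n = 3). APOL2 made up 93.5% to 94.9% of the summed FPKM across the LNCaP-ENZR libraries, against 69.6% to 72.8% across the LNCaP-WT libraries. APOL1 made up 0% to 0.908% in LNCaP-ENZR, against 12.9% to 15.0% in LNCaP-WT. APOL6 held 0.242% to 0.428% in LNCaP-ENZR and 5.38% to 5.69% in LNCaP-WT. Leaving out APOL2, the other members summed to 0.353 ± 0.0626 FPKM in LNCaP-ENZR and 7.01 ± 0.293 FPKM in LNCaP-WT.

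**Figure D2:**
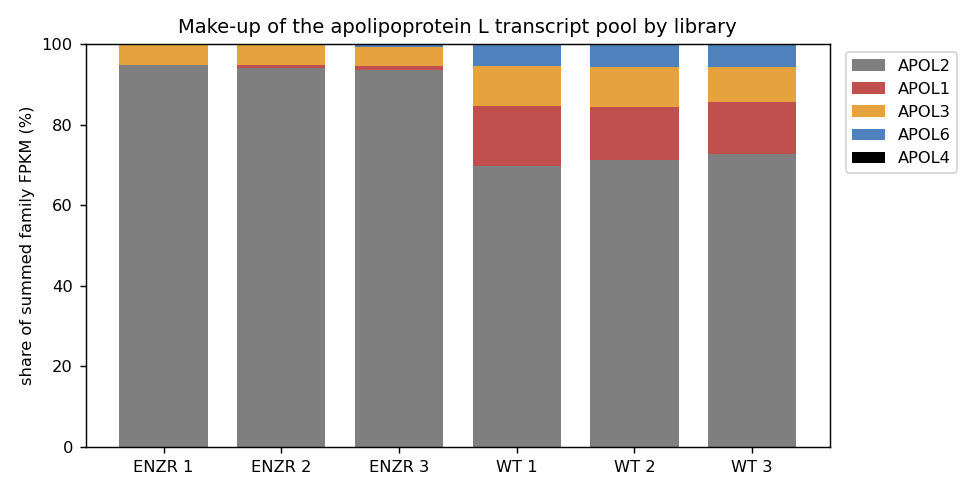
Share of each APOL gene in the summed FPKM of the 5 members (vertical, percent) in each LNCaP-ENZR and LNCaP-WT library. APOL2 takes at least 93.5% of every LNCaP-ENZR bar and at most 72.8% of any LNCaP-WT bar, and APOL4 is too scarce to be seen.

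The genes beside the members differed by less, and several did not pass the test. RBFOX2, which lies between APOL6 and APOL3, had 90.2 ± 4.10 CPM in LNCaP-ENZR and 90.5 ± 3.45 CPM in LNCaP-WT (SD, n = 3 each; log2 fold change -0.01 ± 0.059 SE, edgeR adjusted p = 0.95). MYH9, the non-muscle myosin gene that follows APOL1, had a log2 fold change of -0.09 ± 0.053 (edgeR adjusted p = 0.14), and TXN2, mitochondrial thioredoxin, one of 0.07 ± 0.065 (edgeR adjusted p = 0.37). On the other side of the cluster MB, which encodes myoglobin, fell 1.95-fold (edgeR adjusted p = 9.0e-11) and MCM5, part of the replicative helicase, rose 2.61-fold (edgeR adjusted p = 2.9e-12). The RNA gene LOC107985590 (log2 fold change 0.89 ± 0.46, edgeR adjusted p = 0.095) and MYH9-DT (0.44 ± 0.48, adjusted p = 0.42) did not pass. RASD2, a small GTPase gene, rose 1.58-fold (edgeR adjusted p = 0.013, but 0.058 without LNCaP-ENZR 3, and 0.091 and 0.086 with limma-trend on FPKM plus 0.1 and plus 1), and FOXRED2 rose 1.24-fold.

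Across the region within 1 Mb of the members, 34 further genes were in the count table and 24 were tested. Of these 10 rose, 6 fell and 8 did not pass, or 16 of 24, beside 69.2% of all tested genes called in either direction, and their median log2 fold change was 0.32. TMPRSS6, a liver-type membrane protease gene in the outer part of this region, had the largest fall among the 24 tested neighbours. The interval of its scaled count ratio, 39.3 to 61.1 for LNCaP-WT over LNCaP-ENZR, overlapped those of APOL1 and APOL6. TMPRSS6 had 12, 55 and 18 counts in LNCaP-ENZR, against 1377, 1393 and 1491 counts in LNCaP-WT (edgeR log2 fold change -5.60 ± 0.32 with adjusted p = 1.8e-06, and -6.50 without LNCaP-ENZR 2). Its own flanks did otherwise: IL2RB, the interleukin-2 receptor beta chain, rose 2.15-fold (edgeR adjusted p = 6.3e-04), and KCTD17 had a log2 fold change of 0.12 ± 0.091 (adjusted p = 0.25). The sulfur transferase gene MPST rose 1.81-fold. Among the 10 that rose, the RNA gene LOC105373017 (edgeR adjusted p = 0.03) lost its call in 6 settings. They were no filter (0.061), the DESeq2 Wald test (0.054), and leaving out LNCaP-WT 1, 2 or 3 (0.074, 0.065 and 0.08) or LNCaP-ENZR 2 (0.15). The RNA gene LINC01399 (edgeR adjusted p = 0.013) lost its call without LNCaP-ENZR 1 (0.055). The other genes that fell were the intestinal homeobox gene ISX by 1.89-fold, TOM1 of endosomal sorting by 1.39-fold, the heme oxygenase gene HMOX1 by 1.32-fold and C1QTNF6 by 1.15-fold. The call for C1QTNF6 (edgeR adjusted p = 0.035) was lost with no filter (0.050) and without any 1 of 5 libraries, at adjusted p = 0.11, 0.064 and 0.057 without LNCaP-WT 1, 2 or 3 and at 0.18 and 0.079 without LNCaP-ENZR 1 or 2.

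**Figure D3:**
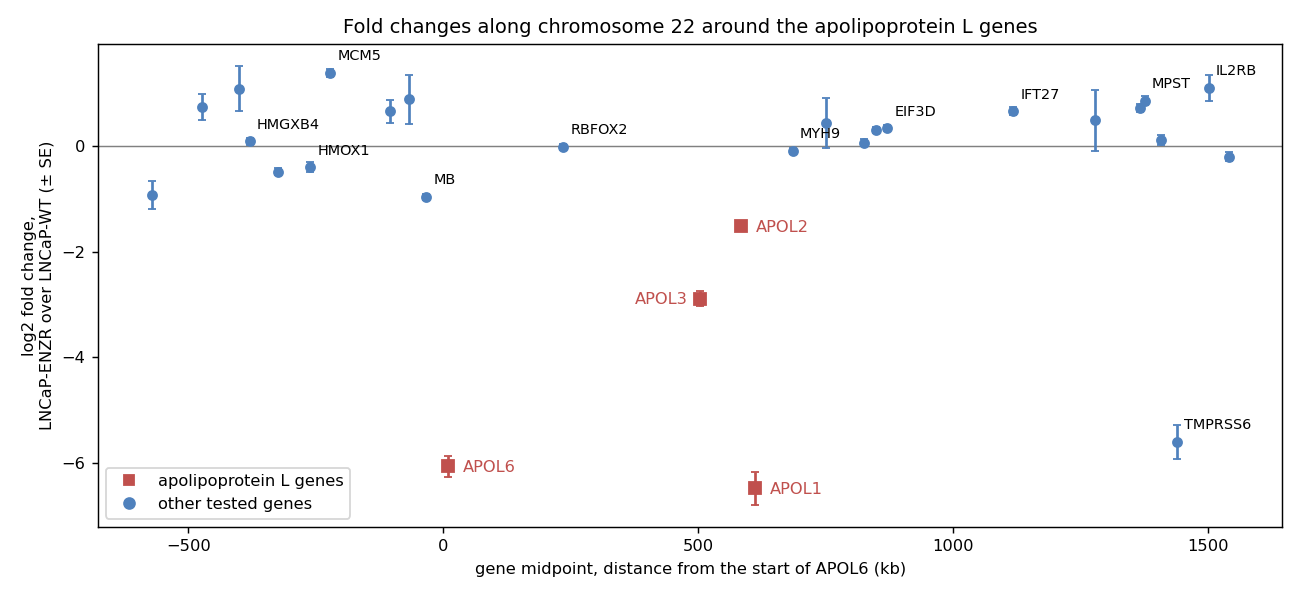
Log2 fold change, LNCaP-ENZR over LNCaP-WT, ± SE (vertical) of tested genes against the distance of their midpoint from the start of APOL6 in kb (horizontal); squares are APOL genes and circles are other genes. RBFOX2 at -0.01 lies between APOL6 at -6.06 and APOL3 at -2.89, MYH9 at -0.09 lies just past APOL1 at -6.48, and TMPRSS6 at -5.60 is the only circle near the lowest squares.

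Interferons and tumour necrosis factor, which raise APOL transcription, signal through receptors, JAK kinases, and STAT, IRF and NF-kB factors. Of 22 genes listed for these steps, all were tested: 13 fell, 3 rose and 6 did not pass. The 16 called are a share near the 69.2% of all tested genes called in either direction. By direction, 34.8% of all tested genes were called lower and 34.4% higher. The list was chosen with earlier results of these data known, so nothing is read from these shares. Their median log2 fold change was -0.35. The receptors changed little: IFNGR2 fell 1.43-fold (edgeR adjusted p = 9.1e-07), IFNAR1 had a log2 fold change of -0.07 ± 0.064 (adjusted p = 0.32) and the tumour necrosis factor receptor TNFRSF1A one of 0.01 ± 0.061 (adjusted p = 0.88). IFNGR1 fell 1.19-fold (edgeR adjusted p = 0.034), a call lost without LNCaP-WT 2 (0.14), LNCaP-ENZR 2 (0.15) or LNCaP-ENZR 3 (0.14). The kinase gene JAK2 had the largest fall of the list, with 6.93 ± 1.47 CPM in LNCaP-ENZR and 54.4 ± 3.06 CPM in LNCaP-WT (SD, n = 3 each; a log2 fold change -2.97 ± 0.12 SE, edgeR adjusted p = 4.5e-13). JAK1 fell 1.90-fold (edgeR adjusted p = 2.5e-07), and TYK2 rose 1.30-fold (adjusted p = 1.4e-04).

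Among the transcription factors, IRF1, which interferon-gamma induces, fell to 3.64 ± 0.296 CPM in LNCaP-ENZR, against 14.7 ± 0.936 CPM in LNCaP-WT (SD, n = 3 each; log2 fold change -2.01 ± 0.12 SE, edgeR adjusted p = 2.8e-11). IRF7, which amplifies the type I interferon response, fell 2.43-fold, the NF-kB subunit genes RELB and RELA fell 2.02-fold and 1.38-fold, and STAT2 fell 1.62-fold (edgeR adjusted p from 1.1e-05 to 1.2e-09). IRF9, which binds DNA together with STAT2, had a log2 fold change of -0.21 ± 0.12 (edgeR adjusted p = 0.13). REL fell 1.46-fold (edgeR adjusted p = 0.0074, but 0.063 without LNCaP-ENZR 1). Besides TYK2, the members that rose were NFKBIA, the NF-kB inhibitor, by 1.44-fold and IFNAR2 by 1.15-fold. The call for IFNAR2 (edgeR adjusted p = 0.033) was lost without LNCaP-WT 1 (0.21), without LNCaP-ENZR 1 (0.060), with library totals as the only scaling (0.21), and with limma-trend on FPKM plus 0.1 or plus 1 (0.22 each).

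Sensors of foreign nucleic acid, which switch on interferon genes, split. Of 8 genes 7 could be tested: 3 fell, 2 rose and 2 did not pass, so the share called, 5 of 7, was near the 69.2% of all tested genes. The median log2 fold change was -0.03. TLR3, the endosomal sensor of double-stranded RNA, fell to 0.352 ± 0.0444 CPM in LNCaP-ENZR, against 2.74 ± 0.285 CPM in LNCaP-WT (SD, n = 3 each; log2 fold change -2.95 ± 0.29 SE, edgeR adjusted p = 3.7e-08). The cytosolic RNA sensors IFIH1 (MDA5) and DDX58 (RIG-I) fell 6.62-fold and 2.80-fold, with a log2 fold change of -2.73 for IFIH1 that was -3.50 without LNCaP-ENZR 3. IFIH1 had 10, 8 and 29 counts in LNCaP-ENZR, against 83, 106 and 134 in LNCaP-WT, and passed the low-count filter through LNCaP-WT. STING1, the adaptor of DNA sensing, rose 2.34-fold (edgeR adjusted p = 2.8e-04) and TICAM1, the adaptor of TLR3, 1.24-fold. The adaptor MAVS and the kinase TBK1 had log2 fold changes of -0.03 and -0.02 and did not pass. The DNA sensor CGAS, with 13 counts in LNCaP-ENZR and 14 in LNCaP-WT, was not tested.

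The guanylate-binding proteins (GBPs) and related effectors attack microbes inside the cell, and GBP1 is known to act with APOL3 on bacterial membranes. Of 11 genes in this list, the table holds 10, and 7 could be tested: 6 fell and 1 rose, beside 34.8% and 34.4% of all tested genes. The median log2 fold change was -4.82. Of the 6, GBP1 to GBP4 were near 0 counts in LNCaP-ENZR and passed the low-count filter through LNCaP-WT, so neither the count nor the median is read as a result about the list. GBP3 had 8 counts over the LNCaP-ENZR libraries and 375 over the LNCaP-WT libraries (log2 fold change -5.45 ± 0.41 SE, edgeR adjusted p = 7.3e-10), and GBP2 had 11 and 331 counts (log2 fold change -4.82 ± 0.46 SE, edgeR adjusted p = 4.2e-08). Single libraries held most of these few LNCaP-ENZR counts: the log2 fold change was -6.74 for GBP3 without LNCaP-ENZR 2 and -6.56 for GBP2 without LNCaP-ENZR 3. GBP1 had 2 counts in LNCaP-ENZR and 91 in LNCaP-WT, a scaled ratio of LNCaP-WT to LNCaP-ENZR of 44.2 with an interval of 11.9 to 370. GBP4 had 1 and 107 counts, a ratio of 104 whose interval began at 18.3, and its only LNCaP-ENZR count came from LNCaP-ENZR 2. GSDMD, the pore-forming executor of pyroptosis, fell 3.91-fold (edgeR adjusted p = 1.5e-08), and RNF213, a ubiquitin ligase that coats cytosolic bacteria, fell 1.58-fold (adjusted p = 0.0025). CASP4, the cytosolic sensor of bacterial endotoxin, was the member that rose, 1.43-fold (edgeR adjusted p = 8.8e-04). GBP5 with 1 and 5 counts, GBP6 with 0 and 1, and IRGM with 16 and 10, LNCaP-ENZR first in each pair, were not tested.

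Genes for proteins reported to bind or travel with APOL1 or APOL3 moved both ways. Of 9 genes 7 could be tested: 4 rose, 2 fell and 1 did not pass, beside 69.2% of all tested genes called in either direction. The median log2 fold change was 0.39. PHB2, a mitochondrial inner membrane scaffold, rose to 324 ± 18.7 CPM in LNCaP-ENZR, against 146 ± 9.20 CPM in LNCaP-WT (SD, n = 3 each; log2 fold change 1.14 ± 0.060 SE, edgeR adjusted p = 2.8e-12). NCS1, a neuronal calcium sensor that binds APOL3, rose 1.55-fold and ARF1, a GTPase of the Golgi, 1.39-fold. HPR, the haptoglobin-related protein that forms the trypanolytic particle with APOL1, rose 1.31-fold (edgeR adjusted p = 4.7e-04), although it has a near-identical relative in HP, listed with 1 count in LNCaP-ENZR and 0 in LNCaP-WT. PI4KB, the Golgi lipid kinase that APOL3 and NCS1 regulate, fell 1.25-fold (edgeR adjusted p = 3.7e-05), and VAMP8, a vesicle fusion protein, 1.33-fold (adjusted p = 7.9e-05). APOA1, the main protein of high-density lipoprotein, had 36 counts in LNCaP-ENZR and 49 in LNCaP-WT and did not pass (edgeR adjusted p = 0.62).

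Apolipoproteins outside the APOL family, which are not related to it by sequence, also split. Of 17 genes the table holds 14, and 9 could be tested: 4 fell, 3 rose and 2 did not pass, or 7 of 9 called beside 69.2% of all tested genes. The median log2 fold change was -0.40. APOF, among the 4 that fell, had 17 counts in LNCaP-ENZR and 86 in LNCaP-WT. It passed the low-count filter through LNCaP-WT, so the count called is not read as a result about the list. APOD, a lipocalin, rose to 14.1 ± 0.843 CPM in LNCaP-ENZR, against 2.73 ± 0.249 CPM in LNCaP-WT (SD, n = 3 each; log2 fold change 2.36 ± 0.13 SE, edgeR adjusted p = 6.1e-12). The secreted chaperone clusterin (CLU) rose 2.81-fold (edgeR adjusted p = 1.1e-13) and APOO, a protein of mitochondrial cristae, 1.31-fold. Its relative APOOL fell 1.64-fold (edgeR adjusted p = 1.4e-08) and APOE 2.57-fold from a low level (adjusted p = 0.0024). APOA5 fell 1.57-fold (edgeR adjusted p = 0.035), a call lost without LNCaP-WT 1 (0.067), LNCaP-WT 3 (0.094), LNCaP-ENZR 1 (0.071) or LNCaP-ENZR 3 (0.18).

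**Figure D4:**
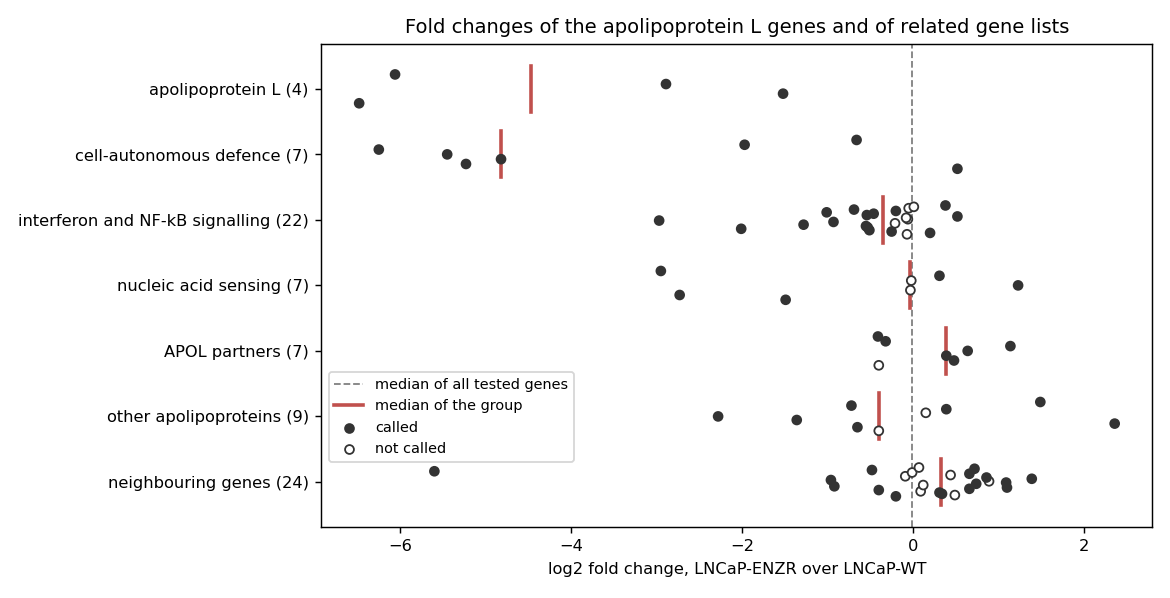
Log2 fold change, LNCaP-ENZR over LNCaP-WT (horizontal), of the tested APOL genes and of the tested genes of 6 related lists; filled points were called, open points were not, red bars are medians, and the dashed line is the median of all tested genes at -0.01. The medians of the APOL genes at -4.48 and of the cell-autonomous defence genes at -4.82 are the lowest, and the other medians lie between -0.40 and 0.39. The APOL genes were chosen from this contrast, and APOL1 and APOL6 passed the low-count filter through LNCaP-WT. GBP1 to GBP4 of the defence genes passed it in the same way, so nothing is read from these positions.

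The genes whose pattern over the 6 libraries was most like that of each member were found by the distance between log2 CPM profiles, each centred on its own mean, among 11878 tested genes whose mean count reached 100. For APOL2 these were HSPB8, a small heat shock protein, MEGF6 and the ubiquitin-like interferon product ISG15, at distances of 0.139, 0.153 and 0.157 log2 units. For APOL3 they were CCDC80, TESK2 and CAMK2B, at 0.185 to 0.257. For APOL6 they were the LIM-domain gene LMO4, VWA5B1 and RAI2, at 0.360 to 0.796. APOL1, whose libraries scatter most at its low level, was nearest to TMPRSS6 at 1.35, then to APOL6 at 1.38 and LMO4 at 1.47. With 6 libraries in 2 groups these distances mainly compare the size of the difference between the groups.

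Endothelial and leukocyte markers were scarce, and fibroblast markers were uneven. The 10 endothelial markers summed to 2.38 to 3.99 CPM across the LNCaP-ENZR libraries and 2.08 to 2.38 CPM across the LNCaP-WT libraries, and the defining genes PECAM1, CDH5 and CLDN5 had 16, 5 and 1 counts in LNCaP-ENZR and 13, 7 and 0 in LNCaP-WT. Within that list 4 were tested: ERG (141 counts in LNCaP-ENZR and 7 in LNCaP-WT) and KDR (45 and 11 counts) rose, and EMCN (1 and 68 counts) fell. Each of these called genes passed the low-count filter only through the group where it was higher. Their calls, beside 69.2% of all tested genes called, are therefore not read as a result about the list. The 9 leukocyte markers in the table summed to 0.792 to 1.09 CPM in LNCaP-ENZR and 0.854 to 1.35 CPM in LNCaP-WT, with 6 and 11 counts of PTPRC. The 10 fibroblast markers summed to 109 to 144 CPM in LNCaP-ENZR and 128 to 141 CPM in LNCaP-WT, mostly from COL1A1. Of the 10, 3 averaged under 1 CPM in LNCaP-ENZR and 2 in LNCaP-WT. PDGFRA had 22 counts in LNCaP-ENZR and 33 in LNCaP-WT, and THY1 had 9 and 3. Of 8 tested, TAGLN and ACTA2 fell, beside 69.2% of all tested genes called. ACTA2, with 29 counts in LNCaP-ENZR and 125 in LNCaP-WT, passed the low-count filter through LNCaP-WT. Of 11 luminal prostate markers, all detected, 7 fell, 3 rose and 1 did not pass, beside 69.2% of all tested genes called. By direction, that share was 34.8% lower and 34.4% higher. The rise of TMPRSS2 lost its call with library totals (adjusted p = 0.073, edgeR) and with limma-trend on FPKM plus 1 (0.051). KLK3 was at 132 to 149 CPM in LNCaP-ENZR and 476 to 516 CPM in LNCaP-WT, and HOXB13 at 527 to 575 CPM in LNCaP-ENZR and 399 to 408 CPM in LNCaP-WT. The part of the luminal shifts, and of the falls of TAGLN and ACTA2, in the APOL values was not tested.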

How the data were processed

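Raw counts per gene and FPKM values were used as the authors deposited them, in 6 libraries. Counts carry no normalization. FPKM values are those counts per kilobase of an implied gene length and per library total, as checked by dividing the deposited tables. Named in the submitters' processing notes are GRCh38, HISAT2, HTSeq and fastp. Not given in the sources used here are versions, annotation and strand mode, so reads from overlapping antisense genes could not be told apart. The members and gene lists were chosen with earlier results of these data known.

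The count test was edgeR 4.0.16 under R 4.3.3 (quasi-likelihood F test, robust, two-sided, TMM scaling, default low-count filter), which left 15422 genes. Calls are at a Benjamini-Hochberg adjusted p under 0.05 over all of them. The SE is the log2 fold change divided by the root of F. CPM uses TMM-scaled library sizes. Where a group held few counts, scaled ratios have exact 95% binomial intervals. Alternatives used DESeq2 1.42.0, limma 3.58.1 and the settings listed in the closing section. The test was tried on simulated data.

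Named genes are the members, per list the 6 largest changes among called genes averaging 20 counts or more, called genes against their list's majority, the 4 nearest neighbours on each side of the cluster, and the 3 nearest profiles of each member averaging 50 counts or more. Further genes of a list were named after their values were seen. The values of 1 listed gene are not reported here.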

Additional observations from a re-analysis of the deposited data

How the results depend on the processing

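The 4 tested members stayed lower in LNCaP-ENZR in all 15 alternative fits; since they were chosen from this contrast, that is no sign of stability. On count scales (DESeq2 size factors, library totals, no filter, a stricter filter, the DESeq2 Wald test, limma-voom, the replicate block, and leaving out single libraries) the log2 fold change ran from -7.05 to -5.90 for APOL1, -6.26 to -5.87 for APOL6, -2.99 to -2.80 for APOL3 and -1.62 to -1.44 for APOL2. On the log2 scale of FPKM plus 0.1 or plus 1 (limma-trend), where the pseudocount shrinks low genes by construction, it was -4.70 and -2.06 for APOL1, -3.62 and -1.21 for APOL6, -2.62 and -1.35 for APOL3, and -1.59 and -1.46 for APOL2, so the order of the members depends on that choice. The count of called genes stayed within 1.5 times of 10674, from 9498 with the stricter filter to 11329 with no filter, and library totals moved the median of all genes from -0.01 to -0.10. Calls in the lists stayed within 1.5 times too. The stricter filter left 4 of 5 tested defence genes and 2 of 5 tested other apolipoproteins lower, as fewer were tested. Of single-gene settings, 1244 kept direction and call, 31 lost the call and 0 reversed. The genes in that tally were the members, their nearest profiles, a gene picked on its values, and listed genes called in the main fit. Their direction and call were thus largely set by the choice of genes, and the tally is no sign of stability. The replicate numbers did not pair the libraries (correlations of 0.0132, 0.0267 and 0.0651), and the replicate block called 10714 genes. The planned promoter search was not run.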

Other observations

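APOLD1, a gene named for an apolipoprotein L domain and known as an early response gene of endothelial cells, lies outside the family and was picked after its values were seen. It had 797, 767 and 730 counts in LNCaP-ENZR, against 461, 422 and 435 counts in LNCaP-WT, and rose 1.79-fold (log2 fold change 0.84 ± 0.091 SE, edgeR adjusted p = 1.0e-07). The groups did not overlap, as for 72.2% of all tested genes.

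The fibroblast collagen genes COL1A2 and COL3A1, also named after their values were seen, varied widely between libraries of one group. COL3A1 had 12, 383 and 201 counts in LNCaP-ENZR, against 117, 21 and 50 counts in LNCaP-WT, and COL1A2 had 9, 332 and 111 counts in LNCaP-ENZR, against 167, 21 and 193 counts in LNCaP-WT. Neither passed the edgeR test, with adjusted p = 0.30 for COL3A1 and 0.87 for COL1A2.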
